A study of Mus musculus with 6 samples.

Results

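The Z-disc is the protein lattice at the border of each sarcomere, the contractile unit of striated muscle, and 10 genes for its proteins were followed in C2C12 cells labelled *Hnrnpa2b1* KO or WT. They were *Actn2*, *Actn3*, *Myot*, *Tcap*, *Myoz1*, *Myoz2*, *Myoz3*, *Ldb3*, *Pdlim3* and *Synpo2l*, chosen by symbol among the 46078 genes listed in the table of read counts. All 10 were listed, and 9 had enough reads for the test across genes, the exception being *Myoz3*. After 2 days of differentiation *Myot*, *Tcap*, *Actn2*, *Pdlim3* and *Myoz1* were lower in *Hnrnpa2b1* KO cells than in WT cells, by 27.0-fold, 10.5-fold, 7.65-fold, 3.70-fold and 2.87-fold. *Actn3*, *Myoz2*, *Ldb3* and *Synpo2l* did not pass the threshold, and 0 of the 9 were higher.

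In the Z-disc, thin filaments of opposite polarity from neighbouring sarcomeres overlap and are tied together by α-actinin dimers. Titin, the giant protein that spans each side of the sarcomere, is anchored there by its cap protein and by α-actinin. Around this core sit α-actinin-binding adaptors with immunoglobulin, PDZ or LIM domains, and the myozenins (calsarcins), which tether the phosphatase calcineurin. The genes of most of these proteins are switched on as myoblasts leave the cell cycle and fuse into myotubes.

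C2C12 is an immortalized mouse myoblast line whose cells differentiate when serum is lowered. The methods describe KO cells made with Cas9 and a single guide RNA against *Hnrnpa2b1*, an RNA-binding protein gene, under puromycin selection. They describe independent clones of both genotypes, without saying which library came from which clone. Cells of both genotypes spent 2 days under reduced serum with added ITS before RNA was taken and depleted of ribosomal RNA. There were 3 libraries of KO cells (KO1, KO2 and KO3) and 3 of WT cells (WT1, WT2 and WT3), so every p-value measures the spread between these libraries alone.

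Each library held 33605258 to 40558740 reads counted on genes. Levels are given as CPM, the count of a gene relative to the size of its library after TMM scaling. *Hnrnpa2b1* itself, the targeted gene, was at 159, 195 and 249 CPM in KO1, KO2 and KO3, and at 225, 229 and 252 CPM in WT1, WT2 and WT3. The groups overlapped (log2 difference −0.23, SE 0.18, adjusted p = 0.381, edgeR), and since a count does not tell an edited from an unedited transcript, this level does not check the labels. The methods describe a check of the clones at the level of the protein. KO1 stood apart from KO2 and KO3. The summed level of 10 markers of differentiated myotubes was 18320 CPM in KO1 but 6977 and 6464 CPM in the other KO libraries, against 12530 to 16690 CPM in the WT libraries. All 9 tested Z-disc genes were higher in KO1 than in the mean of KO2 and KO3, from 1.43-fold for *Myot* to 6.83-fold for *Myoz2*. Results are also given without KO1 where they change. As KO1 was singled out partly on these same genes, leaving it out lowers their KO mean by construction. Fits without KO1 rest on KO2 and KO3 alone in that group and are not independent evidence of a difference. Bulk RNA cannot separate fewer cells that express a gene from less of its RNA in each cell.

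Across the genome, 14828 genes were tested with edgeR's quasi-likelihood test, and 22.7% passed an adjusted p of 0.05 in either direction. Genes lower in KO made up 10.6% of those tested and genes higher in KO 12.1%. Of the 9 Z-disc genes tested, 5 were lower and 0 were higher, also with 0 higher at an unadjusted p under 0.05 and 0 with DESeq2. Their median log2 difference was −1.52, against 0.03 for all tested genes, and 7 of the 9 had a difference below 0. In 21.6% of tested genes every KO library lay below every WT library, and in 22.7% every KO library lay above. The first pattern held for 5 of the 9 Z-disc genes, the same 5 that passed the test, and the second for 0. Without KO1 the median was −2.27, and 7 were lower and 0 higher, in a fit where 15.1% of all tested genes were lower.

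**Figure D1:**
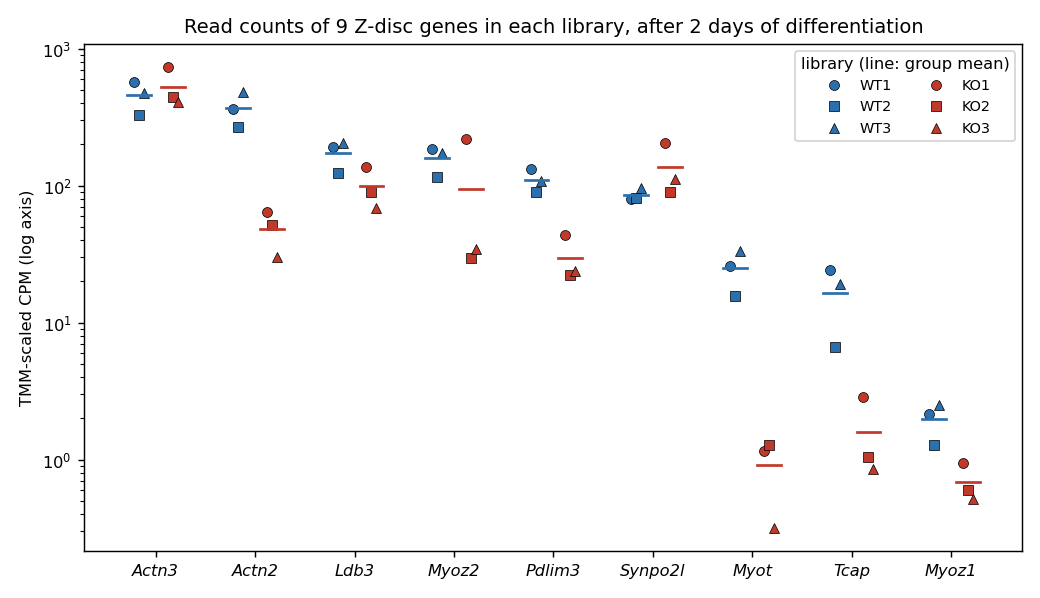
Level of 9 Z-disc genes in each library, as TMM-scaled CPM on a log axis, ordered by the WT mean. Blue marks are the 3 WT libraries, red marks the 3 KO libraries and lines the group means; for *Myot*, *Tcap*, *Actn2*, *Pdlim3* and *Myoz1* all red marks lie below all blue marks.

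Promoter sequence was available here for 5 of the 10 genes, as RefSeq windows on GRCm38.p6 that run from 250 bases before to 50 bases after an annotated start. The 250 bases before the start are shown for *Actn2* and *Pdlim3*, which were lower in KO, and for *Myoz2* and *Synpo2l*, which did not pass in the edgeR test. The outcome for both depended on the setting, as *Myoz2* passed without KO1 and both passed with no filter on low counts. Each reads 5′ to 3′ on the strand of its gene. They lie at chr13:12340733-12340982 (minus strand), chr8:45885237-45885486 (plus strand), chr3:123034988-123035237 (minus strand) and chr14:20668355-20668604 (minus strand, the first of the gene's 2 windows). Capitals mark E-boxes (CANNTG), MEF2 motifs, CArG boxes and the TEAD-type motif CATTCC, searched on both strands. CANNTG is a general form that includes the sites of MyoD-family factors but is not specific to them.
Actn2: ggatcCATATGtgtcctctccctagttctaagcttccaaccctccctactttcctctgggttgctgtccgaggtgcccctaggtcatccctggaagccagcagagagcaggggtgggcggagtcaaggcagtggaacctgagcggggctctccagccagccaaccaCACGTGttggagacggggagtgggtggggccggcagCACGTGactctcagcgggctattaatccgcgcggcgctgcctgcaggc
Pdlim3: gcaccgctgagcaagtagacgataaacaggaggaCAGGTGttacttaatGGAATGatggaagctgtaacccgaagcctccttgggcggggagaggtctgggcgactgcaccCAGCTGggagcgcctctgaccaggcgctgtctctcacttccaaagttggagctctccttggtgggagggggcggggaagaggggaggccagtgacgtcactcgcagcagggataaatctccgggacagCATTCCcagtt
Myoz2: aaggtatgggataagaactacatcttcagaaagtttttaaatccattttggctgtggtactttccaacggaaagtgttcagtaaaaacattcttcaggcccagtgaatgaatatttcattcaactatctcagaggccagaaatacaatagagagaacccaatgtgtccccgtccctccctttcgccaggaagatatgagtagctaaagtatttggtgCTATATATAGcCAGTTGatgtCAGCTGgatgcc
Synpo2l: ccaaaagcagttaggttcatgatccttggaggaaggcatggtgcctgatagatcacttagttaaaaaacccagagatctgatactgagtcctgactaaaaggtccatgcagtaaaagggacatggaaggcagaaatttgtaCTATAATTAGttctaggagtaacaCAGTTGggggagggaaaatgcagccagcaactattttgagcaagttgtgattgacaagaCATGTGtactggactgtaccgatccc

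The *Actn2* window held 3 E-boxes, CATATG at −245 and CACGTG at −84 and −48 from the start. That of *Pdlim3* held the E-boxes CAGGTG at −216 and CAGCTG at −139, with CATTCC motifs at −201 and −11. *Myoz2* had CAGTTG at −22, CAGCTG at −12 and a MEF2 motif at −33, and the first *Synpo2l* window had CAGTTG at −85, CATGTG at −26 and a MEF2 motif at −109. The second *Synpo2l* window, not shown, held 4 E-boxes, of which 2 were CAGCTG, and no MEF2 motif. The windows of *Ldb3*, not shown, held a CArG box and no E-box. Of 32851 windows of this length over all genes, 72.3% held an E-box, 16.3% the form CAGCTG, which is itself an E-box, 14.7% CATTCC, 1.63% a CArG box and 0.557% a MEF2 motif. A match is a run of letters in a window and was not measured as a binding site.

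The α-actinins form the cross-links themselves. *Actn2* (ENSMUSG00000052374, chr13:12269426-12340760, GRCm38), expressed in all skeletal fibres and in heart, was at 63.6, 51.8 and 30.0 CPM in KO1, KO2 and KO3, and at 364, 269 and 480 CPM in WT1, WT2 and WT3. The highest KO library was below the lowest WT library, and KO1 was low like the other KO libraries. The group means were 48.5 ± 17.1 and 371 ± 106 CPM (SD, n = 3), and the log2 difference was −2.94 (SE 0.33, 95% CI −3.69 to −2.18, adjusted p = 0.00212, edgeR). Among all tested genes, called or not, 203 had a difference at or below that of *Actn2*.

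*Actn3* (ENSMUSG00000006457, chr19:4861223-4877909), the isoform of fast fibres, was at 733, 441 and 404 CPM in the KO libraries and at 571, 327 and 474 CPM in the WT libraries. The groups overlapped throughout, with the highest value in KO1 and the lowest in WT2. The log2 difference of 0.20 had a 95% CI from −0.46 to 0.87 (SE 0.29, adjusted p = 0.637, edgeR), an interval that does not reach the difference of *Actn2*. Its sign depended on single libraries, as it was −0.12 without KO1 and −0.0018 without WT2.

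Because transcripts differ in length, the isoforms were set against each other in TPM, a unit of transcript abundance relative to the whole library that corrects for length. *Actn3* made up 92.2%, 89.7% and 93.2% of the summed TPM of *Actn2* and *Actn3* in KO1, KO2 and KO3, and 61.9%, 55.9% and 50.4% in WT1, WT2 and WT3. All KO libraries were above all WT libraries, with means of 91.7% ± 1.82 and 56.1% ± 5.77 (SD, n = 3). The exact permutation test gave p = 0.1, the smallest that 3 libraries against 3 allow, and 0.3 after adjustment over the 9 shares compared. The KO minus WT difference of 35.6 points lay between 32.8 and 38.5 points with each library left out. Both muscle isoforms together made up 58.4% ± 8.86 of the TPM of the 4 α-actinins in KO and 73.9% ± 8.18 in WT, with libraries that overlapped (exact permutation p = 0.2). The non-muscle isoform *Actn1* was higher in KO, at 261, 206 and 309 CPM against 116, 171 and 118 CPM (log2 difference 0.93, SE 0.21, adjusted p = 0.0202, edgeR), and *Actn4* was at 0.14 (adjusted p = 0.484).

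**Figure D2:**
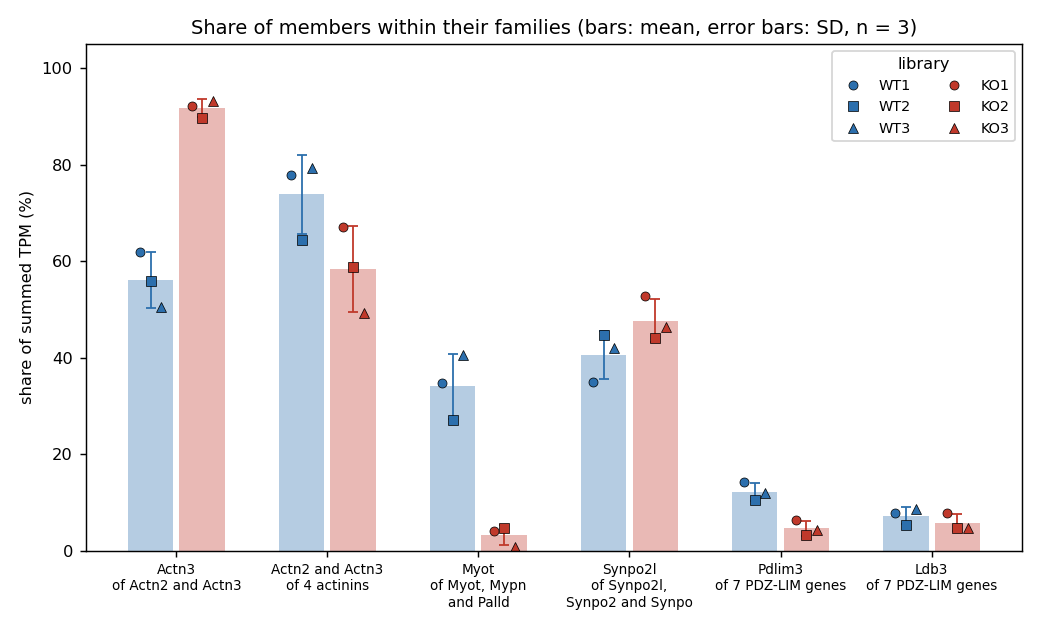
Share of Z-disc genes in the summed TPM of their family, in percent. Bars are means, error bars SD and marks the 3 libraries of each genotype; *Actn3* took 89.7% to 93.2% of the muscle α-actinin TPM in KO and 50.4% to 61.9% in WT, and *Myot* 0.825% to 4.67% in KO and 27.1% to 40.5% in WT.

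*Myot* (ENSMUSG00000024471, chromosome 18) encodes myotilin, an immunoglobulin-domain protein that binds α-actinin and filamin C and bundles actin. It was at 1.15, 1.28 and 0.317 CPM in KO1, KO2 and KO3, from 41, 56 and 13 reads, and at 25.8, 15.7 and 33.0 CPM in WT1, WT2 and WT3, from 891, 516 and 1223 reads. No KO library came near the lowest WT library. The log2 difference was −4.76 (SE 0.51, 95% CI −5.94 to −3.58, adjusted p = 0.00193, edgeR), the lowest of the 9 Z-disc genes, and 61 of the 14828 tested genes (0.411%) were at or below it.

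Myotilin has a pair of relatives with similar domains. *Mypn*, for myopalladin, was at 11.1, 10.4 and 10.6 CPM in KO and at 26.3, 12.4 and 22.4 CPM in WT, a log2 difference of −0.93 (SE 0.26, adjusted p = 0.0406, edgeR). *Palld*, for palladin, had a difference of −0.54 (adjusted p = 0.0787). In TPM, *Myot* took 4.13%, 4.67% and 0.825% of the sum of *Myot*, *Mypn* and *Palld* in the KO libraries and 34.7%, 27.1% and 40.5% in the WT libraries. The groups did not overlap (means 3.21% ± 2.08 and 34.1% ± 6.70, SD, n = 3, exact permutation p = 0.1, adjusted 0.3).

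*Tcap* (ENSMUSG00000007877, chr11:98383811-98384953) encodes telethonin, the cap that joins the ends of a pair of titin molecules at the Z-disc. Its level was 2.85, 1.05 and 0.854 CPM in KO1, KO2 and KO3, from 102, 46 and 35 reads, and 24.0, 6.58 and 19.1 CPM in WT1, WT2 and WT3, from 830, 216 and 707 reads. WT2 was the lowest WT library and KO1 the highest KO library, and they did not cross. The log2 difference was −3.39 (SE 0.61, 95% CI −4.80 to −1.98, adjusted p = 0.00927, edgeR). *Ttn*, the gene of titin, was not called (0.56, SE 0.46, adjusted p = 0.396).

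Of the myozenins, *Myoz1* is best known from fast fibres and *Myoz2* from slow fibres and heart. *Myoz1* (ENSMUSG00000068697, chr14:20649102-20656540) had few reads, 34, 26 and 21 in KO1, KO2 and KO3 and 74, 42 and 92 in WT1, WT2 and WT3. This gave 0.951, 0.595 and 0.513 CPM against 2.14, 1.28 and 2.48 CPM, without overlap. The log2 difference of −1.52 (SE 0.40, 95% CI −2.44 to −0.60) had an adjusted p of 0.0308 with edgeR. It was no longer called when KO2, KO3, WT1 or WT3 was left out, where the adjusted p reached 0.116 and the log2 difference at its smallest was −1.35.

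*Myoz2* (ENSMUSG00000028116, chr3:123006206-123035015) was at 218, 29.7 and 34.2 CPM in the KO libraries and at 186, 115 and 172 CPM in WT1, WT2 and WT3. KO1 held the highest value of all 6 libraries and KO2 and KO3 the lowest. The spread within KO left a log2 difference of −0.75 with a wide 95% CI, −2.39 to 0.89 (SE 0.71, adjusted p = 0.470, edgeR). Without KO1 the difference was −2.31 (adjusted p = 0.000405). With any other single library left out it lay between −0.94 and −0.33 and did not pass (adjusted p from 0.444 to 0.773, edgeR). *Myoz2* supplied nearly all myozenin TPM in both groups, 98.6% to 99.6% in KO and 98.8% to 99.1% in WT.

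*Myoz3* (ENSMUSG00000049173, chromosome 18), a further fast-fibre myozenin, had 1 read in KO3 and 0 in each of the other 5 libraries. With 3 reads taken as the limit that a count of 0 allows, its level in those 5 libraries could have been up to 0.0687 to 0.0914 CPM, depending on the library, counting error alone considered. No difference was detectable at this depth.

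The PDZ-LIM proteins dock on α-actinin through the PDZ domain. *Pdlim3* (ENSMUSG00000031636, chr8:45885485-45919546), the gene of the actinin-associated LIM protein, was at 43.4, 22.1 and 23.8 CPM in KO1, KO2 and KO3 and at 132, 90.1 and 108 CPM in WT1, WT2 and WT3. All KO libraries were below all WT libraries, KO1 included. The log2 difference was −1.89 (SE 0.28, 95% CI −2.54 to −1.24, adjusted p = 0.00519, edgeR).

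*Ldb3* (ENSMUSG00000021798, chr14:34526699-34588681), whose product is called ZASP or Cypher, was at 137, 90.0 and 68.9 CPM in the KO libraries and at 190, 123 and 203 CPM in the WT libraries. KO1 lay above WT2, so the groups overlapped. The log2 difference of −0.80 had a 95% CI, not adjusted for the number of genes, of −1.46 to −0.15 (SE 0.28), and an adjusted p of 0.0765 with edgeR. It passed in other fits, at −1.12 without KO1 (adjusted p = 0.0103) and at −0.83 with DESeq2 (adjusted p = 0.025). With any other single library left out it did not pass (adjusted p from 0.0541 to 0.214, edgeR).

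Among the other PDZ-LIM genes, *Pdlim2* was higher in KO, at 51.2, 59.8 and 43.0 CPM against 19.3, 12.8 and 18.4 CPM (log2 difference 1.61, SE 0.20, adjusted p = 0.0029, edgeR). *Pdlim5*, for the enigma homolog ENH, was lower, at 152, 123 and 128 CPM against 208, 173 and 199 CPM (−0.52, SE 0.14, adjusted p = 0.0344). *Pdlim1* had a larger but less even difference, −1.21 (SE 0.42, adjusted p = 0.0757). Of the summed TPM of 7 PDZ-LIM genes, *Pdlim3* made up 6.33%, 3.28% and 4.32% in KO and 14.2%, 10.5% and 12.0% in WT. Those groups did not overlap (exact permutation p = 0.1, adjusted 0.3), whereas the share of *Ldb3* did overlap, with means of 5.79% ± 1.78 and 7.24% ± 1.79 (p = 0.3). That difference of −1.45 points was −2.48 without KO1, −2.45 without WT2 and −0.728 without WT3.

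*Synpo2l* (ENSMUSG00000039376, chr14:20658946-20668354), a neighbour of *Myoz1* on the same strand, encodes a Z-disc protein of heart and skeletal muscle related to synaptopodin. It was at 206, 89.5 and 111 CPM in KO1, KO2 and KO3 and at 79.4, 80.5 and 96.0 CPM in WT1, WT2 and WT3. KO1 was high, while KO2 lay below WT3. The log2 difference of 0.67 had a 95% CI from −0.0037 to 1.34 (SE 0.29, adjusted p = 0.130, edgeR), and it was 0.23 without KO1 (adjusted p = 0.293). *Synpo* was higher in KO (0.68, SE 0.19, adjusted p = 0.0375) and *Synpo2* was at 0.04 (adjusted p = 0.926). The share of *Synpo2l* in the TPM of these 3 genes was 47.7% ± 4.51 in KO and 40.6% ± 5.05 in WT (exact permutation p = 0.2), a difference of 7.07 points that was 4.55 without KO1 and 4.25 without WT1.

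**Figure D3:**
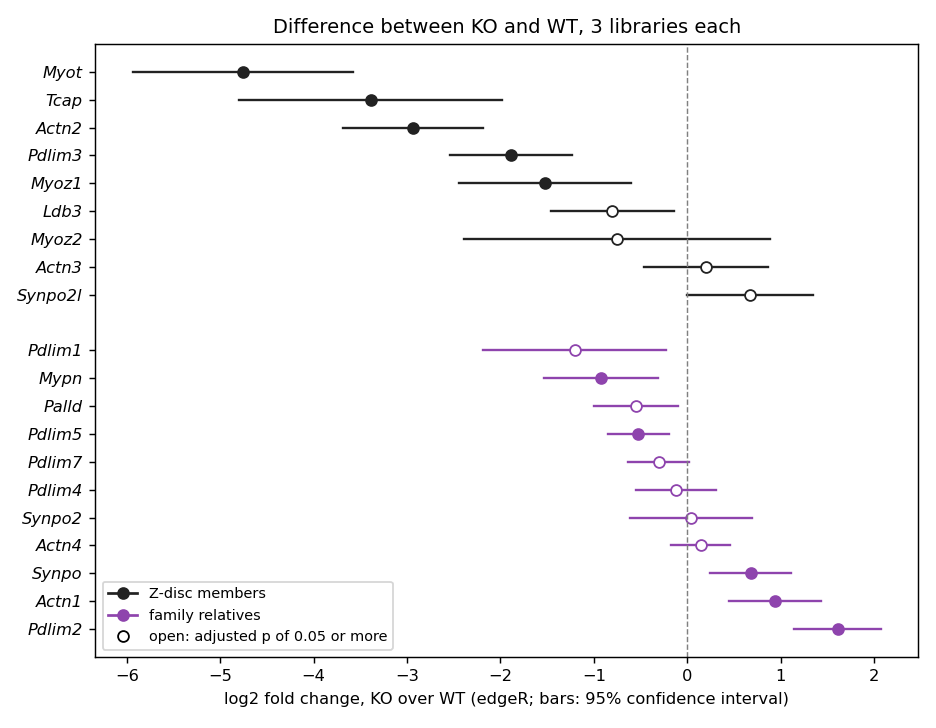
log2 difference between KO and WT for 9 Z-disc genes (black) and 11 relatives from their families (purple), with 95% confidence intervals from edgeR. Filled marks passed an adjusted p of 0.05; the Z-disc genes run from −4.76 for *Myot* to 0.67 for *Synpo2l* and the relatives from −1.21 for *Pdlim1* to 1.61 for *Pdlim2*.

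The 4 members with differences below −1.8 kept their calls whichever library was left out. The highest adjusted p over these 6 fits was 0.0143 for *Actn2*, 0.0140 for *Myot*, 0.0439 for *Tcap* and 0.0288 for *Pdlim3*. Their log2 differences ranged from −3.18 to −2.68 for *Actn2*, from −5.10 to −4.34 for *Myot*, from −4.12 to −3.03 for *Tcap* and from −2.27 to −1.71 for *Pdlim3*. Across the same 6 fits the number of Z-disc genes lower in KO was 4 to 7 and the number higher was 0. The background moved as well. Without WT1, 4 were lower, where 933 of 15521 tested genes were called in either direction. Without KO1, 7 were lower, where 4712 of 15409 were called.

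**Figure D4:**
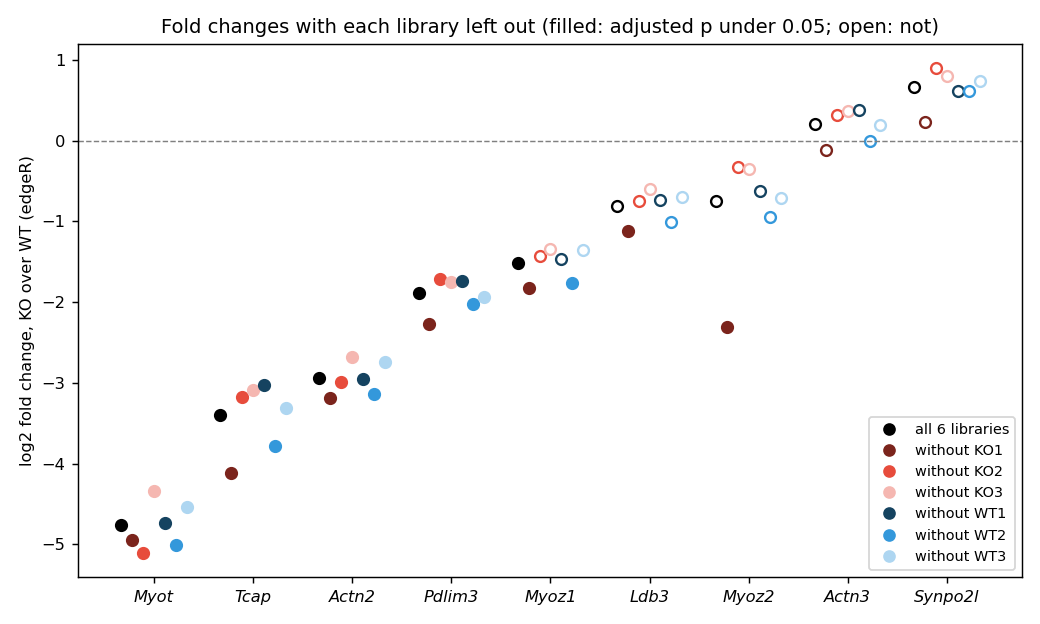
log2 difference of 9 Z-disc genes between KO and WT with all 6 libraries (black) and with each library left out (red without a KO library, blue without a WT library). Filled marks had an adjusted p under 0.05; *Myoz2* moved from −0.75 to −2.31 without KO1.

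The second measure, TPM, was tested with limma on log2(TPM + 1), where 11.9% of the 11691 tested genes were lower in KO. Of the 8 Z-disc genes that passed the filter on low values, 5 were lower and 0 higher. The 5 were *Actn2* (−2.83, adjusted p = 0.000275), *Myot* (−2.72, adjusted p = 0.000275), *Tcap* (−2.49, adjusted p = 0.00416), *Pdlim3* (−1.83, adjusted p = 0.0016) and *Ldb3* (−0.77, adjusted p = 0.0475). *Myot*, under 1 TPM in every KO library, passed that filter only through the WT libraries. So did *Tcap*, at 0.756 TPM in KO2 and 0.750 TPM in KO3. The calls of *Myot* and *Tcap* in TPM are therefore not independent of the filter. On this scale the added 1 shrinks the difference of a low gene such as *Myot*. *Myoz1*, at a mean of 0.978 TPM in WT and 0.317 TPM in KO, was too low to be tested, and *Ldb3* no longer passed when KO2, KO3, WT1 or WT3 was left out, with adjusted p-values up to 0.186.

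By TPM, which corrects for transcript length, *Actn3* was the most abundant of the 10 genes in WT, with a mean of 107 TPM. It was followed by *Myoz2* at 92.7 and *Actn2* at 83.5, and the ranges of these neighbours over libraries overlapped. *Pdlim3* at 45.3 and *Ldb3* at 26.6 stood apart from their neighbours. *Synpo2l* at 14.7 overlapped with *Tcap* at 11.9, and *Tcap* with *Myot* at 7.56. *Myot* stood apart from *Myoz1* at 0.978, and *Myoz3* closed the order. In KO *Actn3* was again first, at 121 TPM, and *Actn2* was the sixth, at 10.9 TPM. *Myoz2* at 53.1, *Synpo2l* at 23.2, *Ldb3* at 15.3 and *Pdlim3* at 12.3 lay between them, each overlapping with the next. *Tcap* at 1.13 TPM stood apart from both neighbours, and *Myot* at 0.274 overlapped with *Myoz1*. The summed TPM of the 10 genes was 360.2, 167.0 and 185.7 in the KO libraries and 458.1, 301.3 and 412.8 in the WT libraries, with KO1 above WT2 (exact permutation p = 0.2).

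In the 22 other Z-disc genes of a list that includes titin, nebulin, filamin C, desmin and the capping proteins, 21 were tested, 2 were lower and 0 higher. In this main fit the share lower, 9.52%, was near the 10.6% of all tested genes. Without KO1 it was not, as 6 of 21 were lower, where 15.1% of all tested genes were. At an unadjusted p under 0.05, 4 were lower and 2 higher, but the share of all genes at that cut was not computed. With DESeq2 4 were lower and 0 higher, where 4161 of the 30252 genes with any read were called in either direction. *Ppp3cb*, a catalytic subunit of the phosphatase calcineurin, was at 70.5, 68.2 and 63.9 CPM in KO and at 97.8, 97.8 and 97.6 CPM in WT (log2 difference −0.53, SE 0.11, adjusted p = 0.0135, edgeR). *Ppp3r1*, a regulatory subunit, was at 68.6, 59.1 and 57.8 CPM in KO and at 94.7, 96.2 and 82.8 CPM in WT (−0.56, SE 0.13, adjusted p = 0.0195). *Ppp3ca*, another catalytic subunit, was at 173, 304 and 306 CPM in KO and at 240, 245 and 223 CPM in WT and was not called (0.14, adjusted p = 0.666). In the TPM fit *Ppp3r1* was called again (adjusted p = 0.0432, limma) and *Ppp3cb* was not (adjusted p = 0.0567), while *Cryab* was lower (−0.80, adjusted p = 0.0334) and *Ankrd23* higher (1.02, adjusted p = 0.0416). Without WT1, 0 of the list were lower with edgeR, where 933 of 15521 tested genes were called in either direction. The median difference of the list in counts was −0.18, against −1.52 for the 9 Z-disc genes tested. Of the 11 family relatives, all tested, 2 were lower and 3 higher, where 10.6% and 12.1% of all tested genes were. Their median was −0.12. With edgeR, 0 of the relatives were lower without KO2, WT1 or WT3, or on library totals alone. Of all tested genes, 2695 of 15202, 933 of 15521, 1288 of 15272 and 3469 of 14828 were called in either direction in those fits. In the TPM fit *Actn1*, *Pdlim2* and *Pdlim5* were called in the same direction, *Mypn* (adjusted p = 0.0788) and *Synpo* (adjusted p = 0.0816) were not, and *Pdlim1* was lower (−1.25, adjusted p = 0.0259, limma).

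Of 12 transcription factors of muscle genes, 3 were lower in KO and 2 higher, where 10.6% and 12.1% of all tested genes were. Without KO1 5 were lower, where 15.1% of all tested genes were. With DESeq2 4 were lower, where 4161 of the 30252 genes with any read were called in either direction. *Mef2c*, which drives sarcomere genes, was at 17.1, 2.34 and 1.17 CPM in KO1, KO2 and KO3 and at 80.8, 162 and 189 CPM in WT1, WT2 and WT3 (log2 difference −4.40, SE 0.95, adjusted p = 0.0169, edgeR). *Myf6*, a MyoD-family gene of late differentiation, was at 0.0488 to 0.420 CPM in KO and at 1.34 to 3.18 CPM in WT (−3.58, adjusted p = 0.0162, edgeR). It passed the filter on low counts only through the WT libraries, with KO2 at 0.0687 and KO3 at 0.0488 CPM, so its call is not independent of the filter. *Myf5*, a gene of early myoblasts, was lower as well (−1.50, adjusted p = 0.0303). *Myod1*, the myoblast determination factor, was among those higher (0.99, adjusted p = 0.0141).

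Markers of differentiation were read from the same libraries. Of the 10 myotube markers, all tested, 0 passed with edgeR, where 10.6% of all tested genes were lower. At an unadjusted p under 0.05, 3 were lower, but the share of all genes at that cut was not computed. With DESeq2 2 were lower, where 4161 genes were called in either direction. Those were among the 30252 genes with any read, a total that includes genes with few reads and is wider than the 14828 tested with edgeR. Without KO1 6 were lower, where 15.1% of all tested genes were. In the TPM fit, where 11.9% of tested genes were lower, 3 of the 10 were lower (*Myh3*, adjusted p = 0.0404, *Myh8*, adjusted p = 0.0173, and *Actc1*, adjusted p = 0.0265, limma) and 9 had a difference below 0. In counts their median difference was −0.37, and their summed CPM overlapped between the groups (6464 to 18320 in KO, 12530 to 16690 in WT). Measured as log2 distance from the WT mean, the median Z-disc gene was at −0.99, −2.30 and −2.17 in KO1, KO2 and KO3, and the median myotube marker was at 0.32, −0.92 and −1.0. In WT1, WT2 and WT3 the corresponding medians were 0.18, −0.45 and 0.27 for Z-disc genes and 0.18, −0.33 and 0.16 for the markers. Both lists were highest in KO1 among the KO libraries and lowest in WT2 among the WT libraries. In KO1 *Actn2*, *Myot*, *Tcap* and *Pdlim3* were at −2.50, −4.37, −2.34 and −1.32, and *Myoz1* and *Ldb3* at −0.99 and −0.29. *Actn3*, *Myoz2* and *Synpo2l* were above 0 in KO1, at 0.72, 0.50 and 1.28, as were 6 of the 10 markers. The markers *Myh3*, *Myh8* and *Actc1* had every KO library below every WT library in CPM, and the other markers overlapped.

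**Figure D5:**
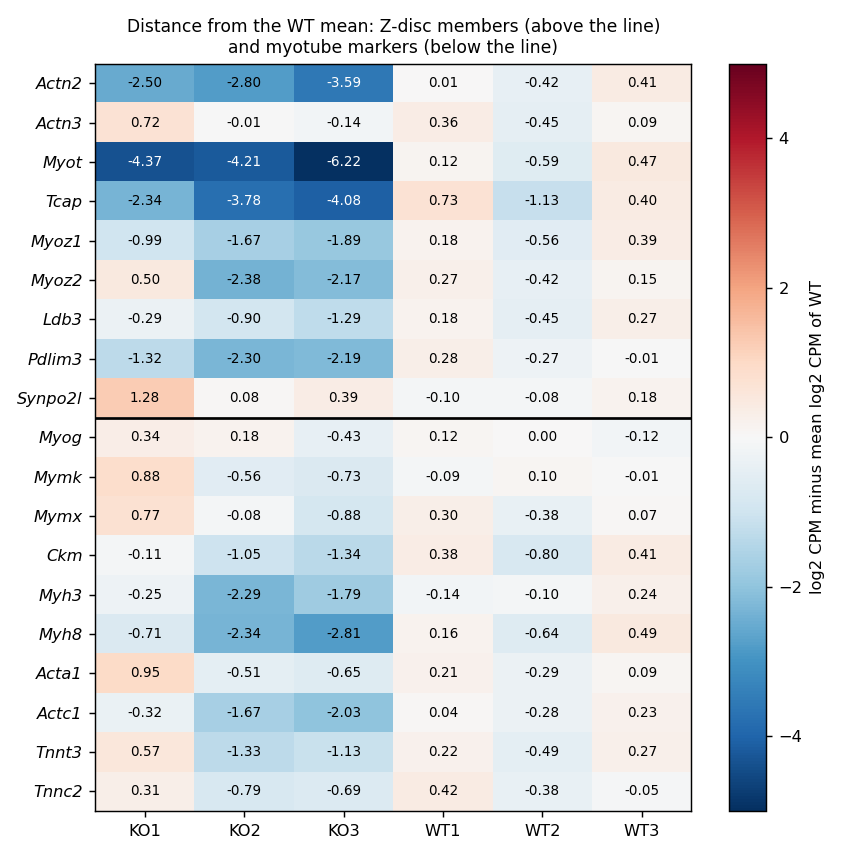
log2 CPM of each library minus the mean log2 CPM of the WT libraries, for 9 Z-disc genes (above the line) and 10 myotube markers (below it). Blue is lower and red higher than WT. For *Actn2*, *Myot*, *Tcap*, *Pdlim3* and *Myoz1* all 3 KO libraries are below every WT library, as they are for the markers *Myh3*, *Myh8* and *Actc1*. *Myoz2* is at 0.50 in KO1 and at −2.38 and −2.17 in KO2 and KO3.

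Markers of other cell types were measured beside these results. The 6 fibroblast genes, of which 4 were tested and 1 was higher (*Pdgfra*), summed to 5498 to 8773 CPM in KO and 3484 to 4555 CPM in WT, without overlap. Most of that sum was *Col3a1*, at 4949 to 8313 CPM in KO and 3423 to 4489 CPM in WT (adjusted p = 0.132, edgeR), and *Col1a1*, *Dcn*, *Lum* and *Thy1* overlapped between the groups. The 8 genes of undifferentiated or cycling myoblasts summed to 217.6 to 416.4 CPM in KO and 216.8 to 273.8 CPM in WT, and 2 were higher (*Pax7* and *Id1*) and 1 lower (*Myf5*). Of all tested genes, 12.1% were higher and 10.6% lower in that fit. Without KO1, 5 of the myoblast genes and 2 of the fibroblast genes were higher, where 4712 of 15409 tested genes were called in either direction. Heart and smooth muscle markers summed to 2.47 to 16.8 CPM in KO and 29.9 to 40.1 CPM in WT, with *Nppa* and *Nppb* at no more than 2 reads in any library. That sum was nearly all *Myh6*, at 1.74 to 16.1 CPM in KO and 29.6 to 39.6 CPM in WT (adjusted p = 0.0607, edgeR), while *Myh11* was at 0.561 to 0.710 CPM in KO and 0.318 to 0.539 CPM in WT (adjusted p = 0.404). In the TPM fit *Myh6* was lower (−1.89, adjusted p = 0.00925, limma), though it passed the filter there only through the WT libraries. Without KO1, 1 gene of this list was lower in counts. Endothelial markers summed to 0.112 to 0.435 CPM in KO and 0.868 to 1.75 CPM in WT, with *Pecam1* at no more than 3 reads and *Kdr* lower in KO (adjusted p = 0.0363, edgeR). *Kdr*, at 0.056, 0.366 and 0.244 CPM in KO1, KO2 and KO3, passed the filter on low counts only through the WT libraries. Its call is not independent of that filter. Blood markers overlapped at 2.20 to 3.41 CPM and 1.92 to 2.40 CPM, with *Hbb-bs* at 0 in all libraries, and 4 of 5 adipocyte markers had no more than 2 reads in any library. The part of these lists, and of the myotube markers, in the Z-disc differences was not tested.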

How the data were processed

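Total RNA of 3 *Hnrnpa2b1* KO and 3 WT cultures of C2C12 cells was sequenced after 2 days of differentiation. Per the methods and the submitters' processing notes, the authors trimmed reads with Trim Galore, aligned them with STAR, and deposited raw read counts per gene from featureCounts, without normalization. The TPM, FPKM and coverage values of each library were deposited by the authors from StringTie, and of these only TPM was used here, with values that shared a gene identifier summed. The counter's version and its use of strand are not given in the sources used here. The methods name GRCm39 and the notes mm9, whereas the deposited gene positions match GRCm38 (99.9% of 45137 shared genes overlap those of GENCODE vM21), so positions are given on GRCm38.

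Counts were scaled with TMM factors (0.949 to 1.08), filtered with filterByExpr and tested over all genes with edgeR 4.0.16 (two-sided quasi-likelihood test on genotype alone, Benjamini-Hochberg, threshold 0.05) in R 4.3.3. TPM was tested with limma 3.58.1 on log2(TPM + 1), for genes with at least 1 TPM in at least 3 libraries. Single values and family shares were compared by two-sided exact permutation tests. Over all genes the spread between libraries exceeded counting error, but genes with few reads, such as *Myoz1* and *Myot* in KO, are also limited by counting. The chi-square per degree of freedom between libraries of 1 genotype was 51.8 to 190, and no 2 libraries were identical. Steps were tested on simulated counts. In simulated 4-fold changes between KO and WT, edgeR recovered 79.1% of 196 changed genes among 14557.

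All 10 Z-disc genes are named. Relatives, other Z-disc genes and transcription factors are named where called or where a share needs them. One called transcription factor is not reported here by name. *Ttn* and the markers of other cell types are named outside this rule, after their values were seen. *Ppp3ca*, which was not called, is also named outside it, beside the other calcineurin subunits. The genes and lists were chosen with earlier results of these data known. *Mymk* and *Mymx* are listed as Tmem8c and Gm7325 in the deposited tables. DESeq2 1.42.0, other scalings, filters and pseudocounts, a replicate block and leaving out each library were the alternatives.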

Additional observations from a re-analysis of the deposited data

How the results depend on the processing

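With 3 libraries in each group, single libraries set several values. *Myoz1*, *Ldb3*, *Myoz2*, *Synpo2l* and, in TPM only, *Tcap* crossed the threshold under some setting, and among single libraries left out it was KO1 whose removal brought *Myoz2* and *Ldb3* past it in counts. DESeq2 gave 4 other Z-disc genes lower, against 2 with edgeR, where 4161 and 3361 of all genes were called in either direction. Library totals alone gave 0 relatives lower, against 2, where 3469 and 3361 of all genes were called in either direction. With no filter on low counts, 1 Z-disc gene (*Synpo2l*, adjusted p = 0.00726) was higher and 7 were lower, *Myoz2* (adjusted p = 0.0166) and *Ldb3* (adjusted p = 0.000405) included. In that fit 5 other Z-disc genes were lower and 1 higher, 4 relatives were lower, and 4538 of all 30252 genes were called in either direction. With no filter on TPM, 3 Z-disc genes were lower, against 5, with *Tcap* (adjusted p = 0.0537) and *Ldb3* (adjusted p = 0.16) no longer called. The share of all genes lower in that fit was not computed. CPM in place of TPM turned the KO minus WT difference in myozenin share, to 0.0726 points from −0.0702 for *Myoz1* and to −0.096 from 0.0702 for *Myoz2*, and gave −3.8 in place of −1.45 points for *Ldb3*. The cause was not tested.

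Deviations of same-numbered libraries from their group means correlated at 0.161, −0.117 and −0.073 over genes. Those of differently numbered libraries correlated at −0.383 to 0.336. With 3 libraries in each group these values show no pairing by replicate number but cannot exclude one. With the number as a block, 2520 genes passed in place of 3361, 5 Z-disc genes were lower as before, and 1 relative was lower. In TPM the block gave 6 Z-disc genes lower, but the share of all genes lower in that fit was not computed. That count is therefore not read as a change in these genes.

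With each library left out, genes called ranged from 933 (without WT1) to 4712 (without KO1), other Z-disc genes from 0 to 6 lower and 0 to 1 higher, and relatives from 0 to 3 lower and 1 to 3 higher. The median of the Z-disc genes lay between −2.27 (without KO1) and −1.35. In TPM 3 to 6 of them were lower and 0 to 1 higher, in fits for which the share of all genes called was not computed. The *Actn3* difference ranged from −0.12 to 0.38 in counts and from −0.016 to 0.37 in TPM. Share differences ranged from −0.301 to 0.224 points for *Myoz1*, from −0.224 to 0.301 for *Myoz2*, from −2.48 to −0.728 for *Ldb3* and from 4.25 to 9.14 for *Synpo2l*. In TPM *Myot* failed the filter without any 1 WT library, so it has no value there. Of the settings tried on single genes, 145 kept the direction and call, 9 gained a call, 10 lost one and 4 changed sign. Of those on counts of calls, the median and shares, 134 were unchanged by the measure used (a count within 1.5 times, a median within 1 SD of the KO libraries, a share difference of the same sign), 29 moved further and 6 changed sign.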
